A study of Mus musculus with 12 samples.

Results

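Transcripts of 8 basement membrane genes were measured in mouse pancreatic stellate cells (PSCs), the fibroblast-like cells of the pancreas, with and without the kinase PKN2. The members were taken by name from a panel of 420 extracellular matrix and adhesion genes, with earlier results of these data known. They are the collagen IV chain genes Col4a1 and Col4a5, the multiplexin collagen genes Col15a1 and Col18a1, the perlecan gene Hspg2, and the laminin chain genes Lama5, Lamb2 and Lamc1. All 8 passed the filter on low values, as did 238 of the 420 panel genes. Col15a1 passed it through its PKN2 KO libraries, where it was higher. Libraries fell into 4 groups of 3, labelled A, B and C in each: WT PSCs with vehicle, PKN2 KO PSCs with vehicle, WT PSCs with TGF-β1, and PKN2 KO PSCs with TGF-β1. TGF-β1, a cytokine that activates stellate cells into matrix-producing myofibroblasts, was given at 5 ng/ml and RNA was taken after 72 h.

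Every group derived from C57BL/6 cells that carried Rosa26CreERT2 and floxed PKN2 alleles and were immortalized with SV40 large T. By the study's methods the PSCs came from the pancreas of a single male mouse, and brief 4-hydroxytamoxifen (4-OHT) activated the Cre to delete PKN2. CreERT2 at Rosa26 is expressed in most cell types and is not specific to stellate cells. The methods do not say what WT cells received in place of 4-OHT, so drug exposure and loss of PKN2 cannot be told apart. PKN2 KO cells were also seeded in more dishes per condition than WT cells. The series text speaks of several lines and the methods of one, so p-values here measure the spread between libraries, which may be technical.

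Basement membranes are thin sheets of matrix in which a laminin network and a collagen IV network are held together by nidogen and perlecan. Laminins are trimers of an α, a β and a γ chain, and collagen IV protomers combine α chains encoded by genes that lie head to head in pairs. In the pancreas these sheets surround acini, ducts, islets and vessels, and activated stellate cells contribute both fibrillar and basement membrane matrix.

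Total panel counts ranged from 1074095 to 1473153 per library (median 1270105). The stellate label was checked against markers on the panel, since α-SMA, desmin, GFAP and Pkn2 itself are not on it and the deletion could not be checked. The 8 fibroblast genes summed to normalized counts between 167500 and 441200 in every library. By contrast, 7 endothelial markers, with Mmrn1 and Sele never counted, summed to between 9.44 and 19.6 in WT with vehicle and 32.7 and 39.5 in WT with TGF-β1, and in PKN2 KO PSCs to between 12.9 and 22.6 and 17.8 and 24.1. The 5 leukocyte markers with any count (Itgam, Itgax, Itgb2, Selplg and Siglec1) summed to between 16.3 and 33.9 with vehicle and 4.30 and 10.99 with TGF-β1. These low sums moved with treatment, and their part in the results was not tested. The 8 epithelial markers summed to between 10.8 and 58.8, with Cdh16 never counted (Lamb3, which rose with TGF-β1, is one of them), and the 4 muscle or Schwann markers to at most 6.10, with Cdh19 and Mag never counted. RNA was taken from whole cultures, in which fewer cells making a transcript and less RNA per cell cannot be told apart.

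Deletion of PKN2 went with more Lama5 and Col4a1 transcript, under vehicle and after TGF-β1 alike. Col15a1 was higher too, but it was tested only because of the PKN2 KO libraries in which it was high. In vehicle these 3 of the 8 members were raised in PKN2 KO PSCs relative to WT and none was lower (limma, Benjamini-Hochberg adjusted p under 0.05), where 13.9% of all genes tested were called, 10.9% higher and 2.94% lower. After TGF-β1 the same 3 members were higher and none lower, against 15.1% of all genes called, 8.82% higher and 6.3% lower. TGF-β1 itself split the family. In WT PSCs it raised Col18a1 and lowered Col4a5, Lama5, Lamb2 and Col15a1, 5 of the 8 against a background of 50.8% (23.9% higher and 26.9% lower). In PKN2 KO PSCs it raised Col18a1 and lowered Col4a5, Lama5 and Lamb2, 4 of the 8 against 48.7% (19.7% higher and 29% lower). These TGF-β1 shares were near those of the panel as a whole.

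The median log2 fold change of the 8 members for PKN2 KO against WT was 0.85 in vehicle and 0.57 after TGF-β1, beside 0.21 and 0.13 over all genes tested. With TGF-β1 it was -0.36 in WT and -0.43 in PKN2 KO PSCs, beside 0.00 and -0.14. The all-gene median in vehicle was 0.03 with TMM scaling in place of the authors' reference-gene factors, and Lama5, Col15a1 and Col4a1 were called with that scaling too. The members whose 3 libraries did not overlap between genotypes were the called ones, 3 of 8 in vehicle (23.9% of all genes were higher in this way) and 3 of 8 after TGF-β1 (17.6%). Col15a1 is 1 of the 3 each time, and it was tested because of its PKN2 KO libraries. With TGF-β1, 1 member lay wholly above and 4 wholly below vehicle in WT (25.6% and 30.3% of all genes), and 1 above and 3 below in PKN2 KO PSCs (21.4% and 31.5%). Without the replicate letter as a block, no member had a called interaction of genotype and TGF-β1 with limma, at an adjusted or at an unadjusted p under 0.05, nor with DESeq2 or edgeR, where 3.36% of all genes were called by limma.

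**Figure D1:**
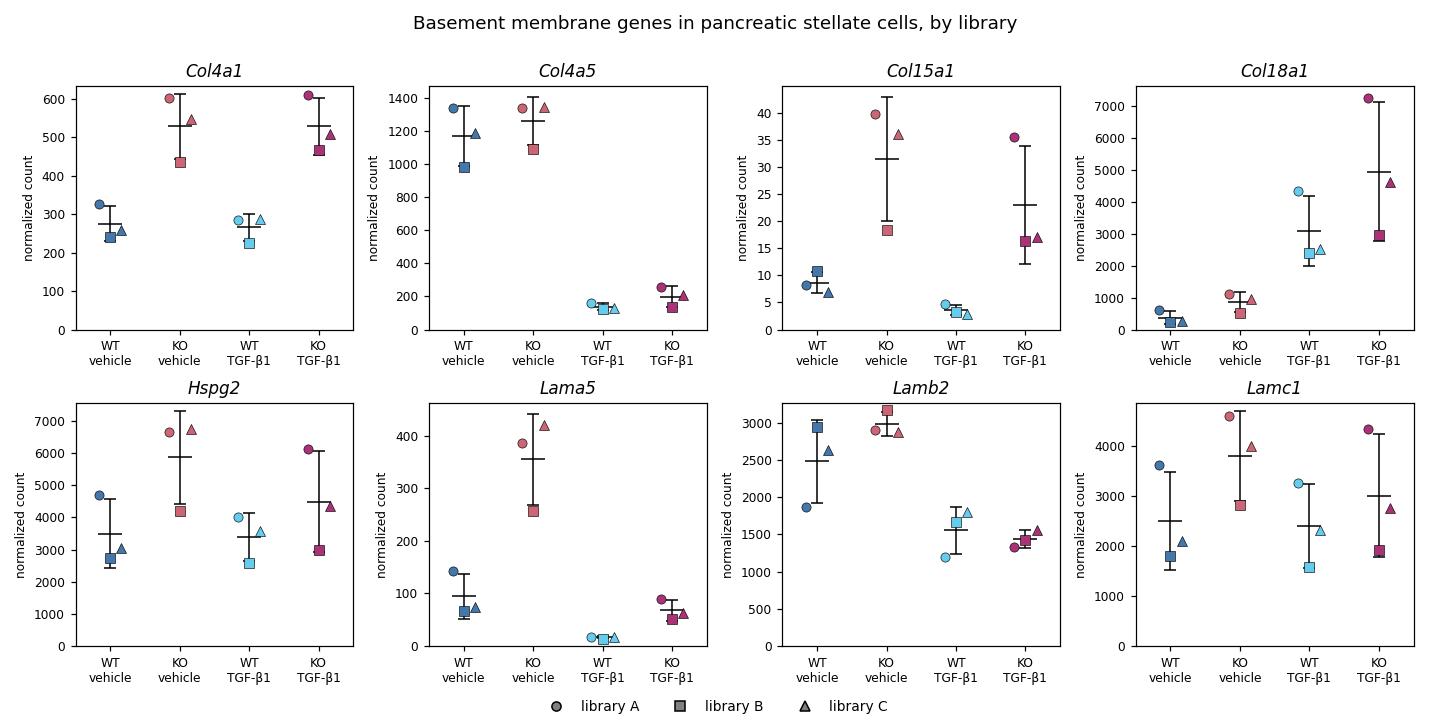
Normalized count (y axis, from 0) of each of the 8 genes in the 12 libraries, by genotype and treatment (x axis). Circles, squares and triangles are libraries A, B and C, and bars are the mean ± SD (n = 3). Every PKN2 KO library lay above every WT library of the same treatment for Col4a1, Col15a1 and Lama5, whereas Col4a5 and Lama5 were low and Col18a1 was high in the TGF-β1 libraries.

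Col4a1 encodes the α1(IV) chain of the collagen IV found in nearly all basement membranes. It lies on the minus strand at chr8:11198423-11312826 (GRCm38). In WT PSCs with vehicle its normalized counts were 327, 242 and 258 in libraries A, B and C, and in PKN2 KO PSCs 601, 436 and 549. After TGF-β1 they were 286, 224 and 287 in WT and 610, 467 and 509 in PKN2 KO PSCs. The genotypes did not overlap in either treatment, and under the authors' factors the level in each genotype was nearly the same with and without TGF-β1. Means were 1.92-fold higher in PKN2 KO PSCs in vehicle (log2 fold change 0.94 ± 0.19 SE, limma adjusted p = 0.00383) and 1.99-fold higher after TGF-β1 (0.99 ± 0.19, adjusted p = 0.00161). The TGF-β1 difference was -0.05 on the log2 scale in WT (95% interval -0.45 to 0.35) and 0.00 in PKN2 KO PSCs (-0.40 to 0.40). Under other scalings it went as low as -0.30 in WT and -0.19 in PKN2 KO PSCs, uncalled in both. With total count scaling and the replicate letter as a block, the WT difference of -0.30 was called (limma adjusted p = 0.0400).

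Its partner Col4a2, which encodes the α2(IV) chain, moved with it. Col4a2 was higher in PKN2 KO PSCs by 0.95 ± 0.28 in vehicle (limma adjusted p = 0.0378) and by 0.96 ± 0.28 after TGF-β1 (adjusted p = 0.0318). The genes are transcribed away from each other, and their annotated spans share 22 bases at their 5′ ends, chr8:11312805-11312826 (GRCm38). These bases are shown here on the plus strand because the pair moved together, with a match to the GC box GGGCGG in capitals.
Col4a1 and Col4a2 overlap: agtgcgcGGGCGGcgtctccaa
Reads of Col4a1 per read of Col4a2 averaged 0.0643 ± 0.00197 in WT with vehicle, 0.0639 ± 0.00423 in PKN2 KO with vehicle, 0.0645 ± 0.00643 in WT with TGF-β1 and 0.0668 ± 0.0167 in PKN2 KO with TGF-β1 (SD, n = 3). This ratio depends on the panel's primers, so only its change between groups can be read, and the groups overlapped. Across the 12 libraries Col4a2 was also the gene most like Col4a1 (Pearson r = 0.96 of log2 values), a description over libraries that share genotypes and treatments.

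Col4a5 encodes the α5(IV) chain, which is mutated in Alport syndrome, and lies at chrX:141475385-141689234 on the plus strand (GRCm38). With vehicle its normalized counts were 1341, 982 and 1189 in WT and 1343, 1095 and 1349 in PKN2 KO PSCs. With TGF-β1 they were 160.5, 124 and 131 in WT and 256, 134 and 209 in PKN2 KO PSCs. Treatment separated all libraries, and genotypes overlapped in both treatments. TGF-β1 lowered Col4a5 to 0.118 of the vehicle mean in WT (log2 fold change -3.07 ± 0.22, limma adjusted p = 3.8e-08) and to 0.158 in PKN2 KO PSCs (-2.70 ± 0.22, adjusted p = 1.44e-07). For PKN2 KO against WT the difference was 0.11 in vehicle (95% interval -0.36 to 0.59), with a sign that flipped to -0.07 under TMM scaling. After TGF-β1 it was 0.48 (0.01 to 0.96, adjusted p = 0.161), and it was called without the PKN2 KO TGF-β1 library B (0.74, adjusted p = 0.0171) and with total count scaling (0.47, adjusted p = 0.0153).

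The neighbour of Col4a5 is Col4a6, which encodes the α6(IV) chain and is transcribed in the opposite direction. Their outermost annotated 5′ ends, taken over GENCODE and RefSeq, lie 1274 bases apart. Col4a6 was counted at 11 to 19 reads in WT and 22 to 47 reads in PKN2 KO libraries with vehicle, and at 0 to 3 reads in WT and 1 to 3 reads in PKN2 KO libraries with TGF-β1. It fell with TGF-β1 in both genotypes (limma adjusted p = 0.000107 in WT and 3.61e-05 in PKN2 KO), as Col4a5 did, but passed the filter only through its vehicle libraries. The stretches just upstream of the start of each are shown because these neighbours fell together (RefSeq, GRCm38.p6, each on its own strand, Col4a5 at chrX:141475169-141475369 and Col4a6 at chrX:141474096-141474326), and neither holds a match to the motifs searched, so neither has capitals.
Col4a5: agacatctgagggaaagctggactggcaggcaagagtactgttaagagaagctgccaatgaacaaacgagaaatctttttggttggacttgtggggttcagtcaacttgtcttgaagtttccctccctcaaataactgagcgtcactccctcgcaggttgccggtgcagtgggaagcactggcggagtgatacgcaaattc
Col4a6: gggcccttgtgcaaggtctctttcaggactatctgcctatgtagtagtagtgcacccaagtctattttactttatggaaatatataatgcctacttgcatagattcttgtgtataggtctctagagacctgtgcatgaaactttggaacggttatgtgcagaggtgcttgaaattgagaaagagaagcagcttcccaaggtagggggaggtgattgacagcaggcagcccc
The bases just upstream of Col4a5 and Col4a6 were 49.8% and 45.5% G or C.

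Because scaling cancels within a library, the balance of Col4a5 to Col4a1 reads was also described, a ratio chosen after the values were seen. It averaged 4.25 ± 0.303 in WT and 2.40 ± 0.147 in PKN2 KO PSCs with vehicle, and 0.523 ± 0.0594 in WT and 0.372 ± 0.0737 in PKN2 KO PSCs with TGF-β1 (SD, n = 3). All 4 groups were apart from each other, with the lowest WT vehicle library at 4.06 and the highest PKN2 KO vehicle library at 2.51.

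The multiplexins Col15a1 and Col18a1 encode collagens XV and XVIII, whose C-terminal ends are released as endostatin-like fragments. Col15a1 lies at chr4:47208161-47313167 on the plus strand (GRCm38) and was the least counted member. Its normalized counts with vehicle were 8.26, 10.8 and 6.90 in WT and 39.9, 18.4 and 36.0 in PKN2 KO PSCs. With TGF-β1 they were 4.72, 3.16 and 2.88 in WT and 35.6, 16.3 and 17.1 in PKN2 KO PSCs. Each PKN2 KO library was above each WT library of its treatment, and the WT values with TGF-β1 rested on 3 or 4 reads each. Since Col15a1 passed the filter through its PKN2 KO libraries, it was tested because of the genotype in which it was high. Col15a1 was higher in PKN2 KO PSCs by 1.69 ± 0.43 on the log2 scale in vehicle (limma adjusted p = 0.0156) and by 2.32 ± 0.43 after TGF-β1 (adjusted p = 0.00148). The vehicle call was lost without WT vehicle library C (1.56, adjusted p = 0.0795), PKN2 KO vehicle library A (1.49, adjusted p = 0.0800) or PKN2 KO vehicle library C (1.56, adjusted p = 0.0771), whereas the call after TGF-β1 held without any 1 of the 12 libraries. The fall with TGF-β1 in WT (-1.08 ± 0.43, adjusted p = 0.0491) was lost without any 1 of 8 libraries (WT vehicle A, B and C, PKN2 KO vehicle A and C, WT TGF-β1 B and C, and PKN2 KO TGF-β1 C, adjusted p from 0.0570 to 0.131). It was also lost in the DESeq2 (adjusted p = 0.0852) and edgeR (0.0706) tests. In PKN2 KO PSCs the TGF-β1 difference was -0.45 (95% interval -1.37 to 0.47).

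Col18a1 lies at chr10:77052178-77166548 on the minus strand (GRCm38). With vehicle, normalized counts were 601, 230.4 and 272 in WT and 1108, 519 and 942 in PKN2 KO PSCs. With TGF-β1 they were 4330, 2382 and 2505 in WT and 7252, 2968 and 4602 in PKN2 KO PSCs. It was the only member that rose with TGF-β1, 8.36-fold in WT (log2 fold change 3.14 ± 0.41, limma adjusted p = 1.22e-05) and 5.77-fold in PKN2 KO PSCs (2.50 ± 0.41, adjusted p = 0.000125). Genotypes overlapped, since WT vehicle library A stood above PKN2 KO vehicle library B. The vehicle difference of 1.28 ± 0.41 missed the threshold (adjusted p = 0.0511) and passed it without WT vehicle library A (1.70, adjusted p = 0.00721). It also passed without PKN2 KO vehicle library B (1.60, adjusted p = 0.0268), without any 1 of WT TGF-β1 library A, PKN2 KO TGF-β1 library A and PKN2 KO TGF-β1 library B (adjusted p from 0.0292 to 0.0363), with DESeq2 (adjusted p = 0.030), with that comparison's libraries alone (0.0244) and with total count scaling (adjusted p = 0.010). After TGF-β1 it was 0.65 (95% interval -0.23 to 1.52, adjusted p = 0.349).

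The stretch just upstream of the outermost Col18a1 start is shown because this was the member that TGF-β1 raised (RefSeq, GRCm38.p6, chr10:77166549-77166780, minus strand). Capitals mark the GC box GGGCGG or its reverse complement CCGCCC, which occurs 3 times.
Col18a1: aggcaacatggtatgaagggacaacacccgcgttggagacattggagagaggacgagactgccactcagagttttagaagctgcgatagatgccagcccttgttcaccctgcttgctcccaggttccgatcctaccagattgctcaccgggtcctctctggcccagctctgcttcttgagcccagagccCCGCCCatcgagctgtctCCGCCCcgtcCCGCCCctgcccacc
This window held no match to the SMAD element GTCTG or CAGAC, whereas the window of an inner Col18a1 start, at chr10:77113656-77113955, held 1 match to it and 2 to the TEAD element GGAATG or CATTCC. Which transcripts the panel's primers count is not given in the sources used here.

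**Figure D2:**
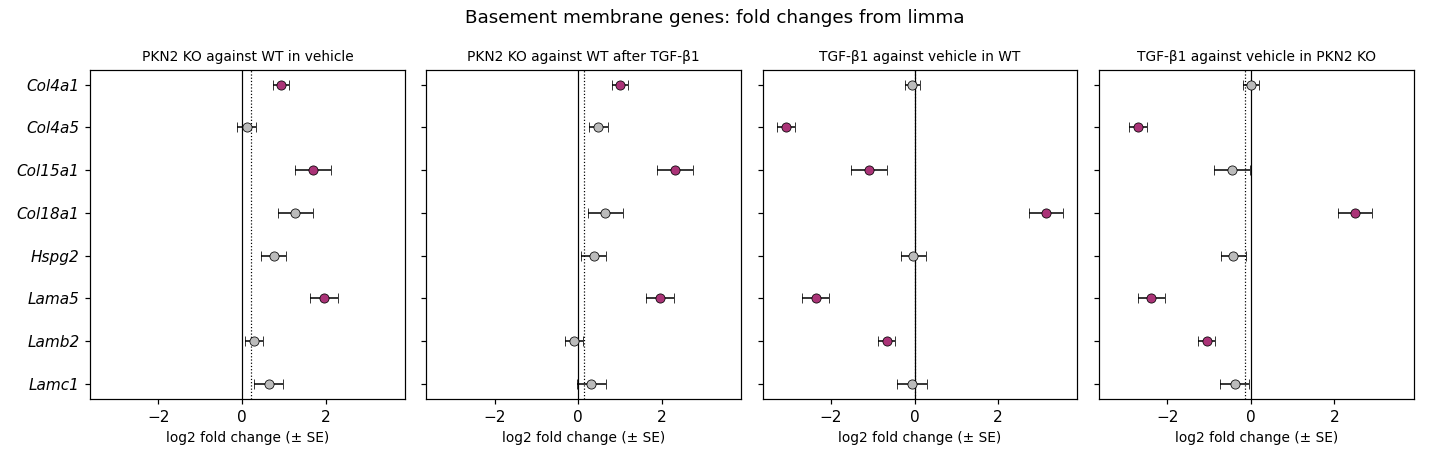
Log2 fold change (x axis, points, with bars of ± 1 SE) of the 8 genes (y axis) in the 4 pairwise comparisons from limma. Filled purple points had an adjusted p under 0.05, grey points did not, and the dotted line is the median of the 238 genes tested. Col4a1, Col15a1 and Lama5 lay to the right for PKN2 KO against WT in both treatments, and Col18a1 and Col4a5 lay at opposite ends with TGF-β1.

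Hspg2 encodes perlecan, the large heparan sulfate proteoglycan that binds laminin, nidogen and growth factors, and lies at chr4:137468769-137570630 on the plus strand (GRCm38). Its normalized counts with vehicle were 4709, 2730 and 3051 in WT and 6669, 4203 and 6742 in PKN2 KO PSCs. Those with TGF-β1 held 4024, 2577 and 3585 in WT and 6118, 2977 and 4367 in PKN2 KO PSCs. The groups overlapped in every comparison. The difference between PKN2 KO and WT was 0.76 in vehicle (95% interval 0.11 to 1.40, limma adjusted p = 0.130) and 0.37 after TGF-β1 (-0.28 to 1.01), and the TGF-β1 difference was -0.03 in WT (-0.67 to 0.62) and -0.42 in PKN2 KO PSCs (-1.06 to 0.23). Each interval between genotypes includes the difference measured for Col4a1 in the same treatment. With total count scaling, Hspg2 was called higher in PKN2 KO PSCs in vehicle (0.69, limma adjusted p = 0.00291) and lower with TGF-β1 in PKN2 KO PSCs (-0.61, adjusted p = 0.00130). That scaling called 44 of 238 genes in the first comparison and 135 in the second, against 33 and 116 under the authors' factors.

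Lama5 encodes the laminin α5 chain, the main α chain of many adult epithelial and vascular basement membranes, and lies at chr2:180176373-180225859 on the minus strand (GRCm38). With vehicle, normalized counts were 143, 66.2 and 74.0 in WT and 387, 257 and 421 in PKN2 KO PSCs. The TGF-β1 libraries held 17.7, 14.2 and 17.3 in WT and 88.9, 51.6 and 62.3 in PKN2 KO PSCs. No groups that differed in 1 factor overlapped. PKN2 KO PSCs held 3.76-fold more in vehicle (log2 fold change 1.96 ± 0.33, limma adjusted p = 0.00142) and 4.12-fold more after TGF-β1 (1.95 ± 0.33, adjusted p = 0.000737). TGF-β1 lowered Lama5 to 0.174 of the vehicle mean in WT (-2.37 ± 0.33, adjusted p = 2.44e-05) and to 0.190 in PKN2 KO PSCs (-2.38 ± 0.33, adjusted p = 2.91e-05). These calls held without any 1 of the 12 libraries, and the interaction was -0.01 (95% interval -1.02 to 1.0). The level in PKN2 KO PSCs after TGF-β1, 67.6 ± 19.2 (SD, n = 3), stood beside 94.3 ± 42.2 in WT PSCs with vehicle, and these groups overlapped.

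The stretch just upstream of Lama5 is shown because it was the member with a called difference in all 4 pairwise comparisons under every library left out (RefSeq, GRCm38.p6, chr2:180225905-180226109, minus strand). Capitals mark 3 GC boxes and 1 SMAD element.
Lama5: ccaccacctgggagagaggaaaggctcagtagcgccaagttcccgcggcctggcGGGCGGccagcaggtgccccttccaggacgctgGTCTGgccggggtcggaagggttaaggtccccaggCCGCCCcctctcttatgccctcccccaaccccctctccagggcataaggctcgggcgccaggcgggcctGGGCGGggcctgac
Among 32851 RefSeq windows of the same 300 bases around gene starts (both strands searched), 35.7% held a GC box, 49.6% a SMAD element and 14.7% a TEAD element. A match is a description of letters and not of a bound site. Windows were found for 7 of the 8 members, with none for Lamc1. In their whole windows Hspg2 held 5 GC boxes and Lama5 held 4, Col4a1 and Col4a5 held 1 each, and Col15a1 and Lamb2 held none but had 1 and 2 SMAD elements.

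Lamb2 encodes the laminin β2 chain, prominent in glomerular, vascular and neuromuscular basement membranes, and lies at chr9:108479736-108490530 on the plus strand (GRCm38). Normalized counts with vehicle were 1866, 2941 and 2636 in WT and 2898, 3167 and 2881 in PKN2 KO PSCs. TGF-β1 libraries held 1200.2, 1664 and 1804 in WT and 1324, 1424 and 1559 in PKN2 KO PSCs. TGF-β1 libraries lay below vehicle libraries of their genotype, while the genotypes overlapped. Lamb2 fell with TGF-β1 by 0.67 on the log2 scale in WT (SE 0.21, limma adjusted p = 0.0126) and by 1.06 in PKN2 KO PSCs (SE 0.21, adjusted p = 0.000630). The WT call was lost without WT vehicle library B (-0.53, adjusted p = 0.0639), WT vehicle library C (-0.61, adjusted p = 0.0510) or WT TGF-β1 library A (-0.49, adjusted p = 0.0682), and the PKN2 KO call was not lost without any 1 library. PKN2 KO against WT gave 0.29 in vehicle (95% interval -0.15 to 0.73) and -0.10 after TGF-β1 (-0.54 to 0.34).

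Lamc1 encodes the laminin γ1 chain, shared by most laminin trimers, and lies at chr1:153218922-153332786 on the minus strand (GRCm38). Normalized counts were 3610, 1796 and 2094 in WT and 4586, 2817 and 3988 in PKN2 KO PSCs with vehicle. With TGF-β1 they were 3261, 1587 and 2326 in WT and 4329, 1917 and 2763 in PKN2 KO PSCs. All groups overlapped, and library A was the highest of every group. Within each letter the PKN2 KO value was above the WT value in both treatments, as it was for every member except Lamb2. How many of all genes share this pattern was not counted. The difference between genotypes was 0.64 in vehicle (95% interval -0.10 to 1.39) and 0.31 after TGF-β1 (-0.43 to 1.05), and the TGF-β1 difference was -0.06 in WT (-0.80 to 0.69) and -0.39 in PKN2 KO PSCs (-1.13 to 0.36). With total count scaling Lamc1 was called lower with TGF-β1 in PKN2 KO PSCs (-0.59, limma adjusted p = 0.0194). Calls over all genes were then 135 of 238, against 116 under the authors' factors. It was called higher in PKN2 KO PSCs in vehicle with the letter as a block and no trend (0.64, limma adjusted p = 0.00553), where 71 of 238 genes were called. The same call was made without the A libraries (0.79, limma adjusted p = 0.0459), beside 38 of 230 genes.

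**Figure D3:**
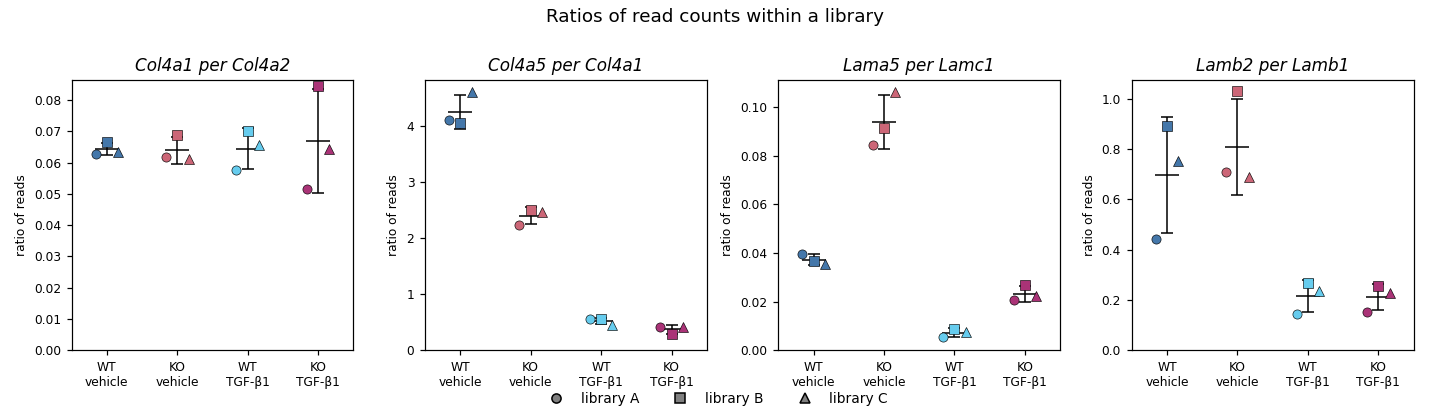
Ratios of read counts within each library (y axis, from 0) by group (x axis), for Col4a1 per Col4a2, Col4a5 per Col4a1, Lama5 per Lamc1 and Lamb2 per Lamb1. Circles, squares and triangles are libraries A, B and C, and bars are the mean ± SD (n = 3). Group means of Col4a1 per Col4a2 lay between 0.0639 and 0.0668, whereas the other ratios were lower with TGF-β1.

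Within libraries the balance of laminin chains was also described, with ratios chosen after the values were seen and no test. Reads of Lama5 per read of Lamc1 averaged 0.0372 ± 0.00215 in WT and 0.0937 ± 0.0108 in PKN2 KO PSCs with vehicle, and 0.00728 ± 0.00177 and 0.0233 ± 0.00326 with TGF-β1 (SD, n = 3). The 4 groups were apart from each other. Relative to its mean, the spread of this ratio was narrower than that of Lama5 alone in 3 of the 4 groups, WT with TGF-β1 being the exception. Lamb2 per Lamb1, the ratio of the β2 to the β1 chain, averaged 0.696 ± 0.231 in WT and 0.811 ± 0.194 in PKN2 KO PSCs with vehicle, and 0.216 ± 0.0638 and 0.212 ± 0.0518 with TGF-β1. Here the genotypes overlapped in each treatment and the treatments were apart.

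Libraries lettered A stood high for part of the family. Under the authors' factors library A held the highest Col18a1 and Lamc1 in 4 of 4 groups, and the highest Col4a1, Col4a5, Col15a1, Hspg2 and Lama5 in 3 of 4. Lamb2 was highest in A in 0 of 4. The authors' factors gave the most normalized counts per read to library A in every group (1.17 to 1.37), for all panel genes alike. Whether A stood higher for this family than for the panel was not tested. With total count scaling Col18a1 and Lamc1 were still highest in A in 4 of 4 groups and Col4a5 in 1 of 4. Without the A libraries, a choice made after the values were seen, 5 members were higher in PKN2 KO PSCs in vehicle (Col4a1, Col18a1, Hspg2, Lama5 and Lamc1), where 38 of the 230 genes then tested were called. After TGF-β1 3 were higher (34 of 230 genes called), and 4 were called with TGF-β1 in each genotype (115 of 230 genes in WT and 104 in PKN2 KO PSCs). What the letters stand for is not given in the sources used here, and their part in these results was not tested.

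Of 12 other basement membrane chain genes on the panel, 6 passed the filter. Col4a2 was called higher in PKN2 KO PSCs, 1 of 6 in each treatment, where 13.9% of all genes tested were called in vehicle and 15.1% after TGF-β1. With TGF-β1 5 of 6 were called in each genotype, 2 higher and 3 lower, beside 50.8% of all genes in WT and 48.7% in PKN2 KO PSCs. Lamb3 passed the filter only through TGF-β1 libraries, and Col4a6 and Nid2 only through vehicle libraries. These genes were thus tested because of the treatment in which they were high. Lamb1, the laminin β1 chain gene, rose with TGF-β1 from 3674 ± 487 to 7393 ± 1063 in WT (log2 fold change 1.01 ± 0.21, limma adjusted p = 0.00103) and from 3777 ± 622 to 7017 ± 1501 in PKN2 KO PSCs (0.89 ± 0.21, adjusted p = 0.00313). Lamb3, the laminin β3 chain gene, rose from 0 to 3 reads per library with vehicle to between 15 and 28 with TGF-β1 (adjusted p = 0.000328 in WT and 6.51e-05 in PKN2 KO). Nid1, which encodes the linker nidogen-1, fell by 1.33 in WT (SE 0.29, adjusted p = 0.00120) and by 1.80 in PKN2 KO PSCs (SE 0.29, adjusted p = 0.000113). Nid2 fell from between 7 and 37 reads to between 0 and 3 reads (adjusted p = 0.000668 and 0.000893). Among those under the filter, the laminin α4 chain gene Lama4, named after its values were seen, had 2 to 7 reads in WT and 7 to 20 reads in PKN2 KO libraries with vehicle, and 0 in the 6 TGF-β1 libraries, where a count of 0 allows up to 3 reads per library by counting error only.

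**Figure D4:**
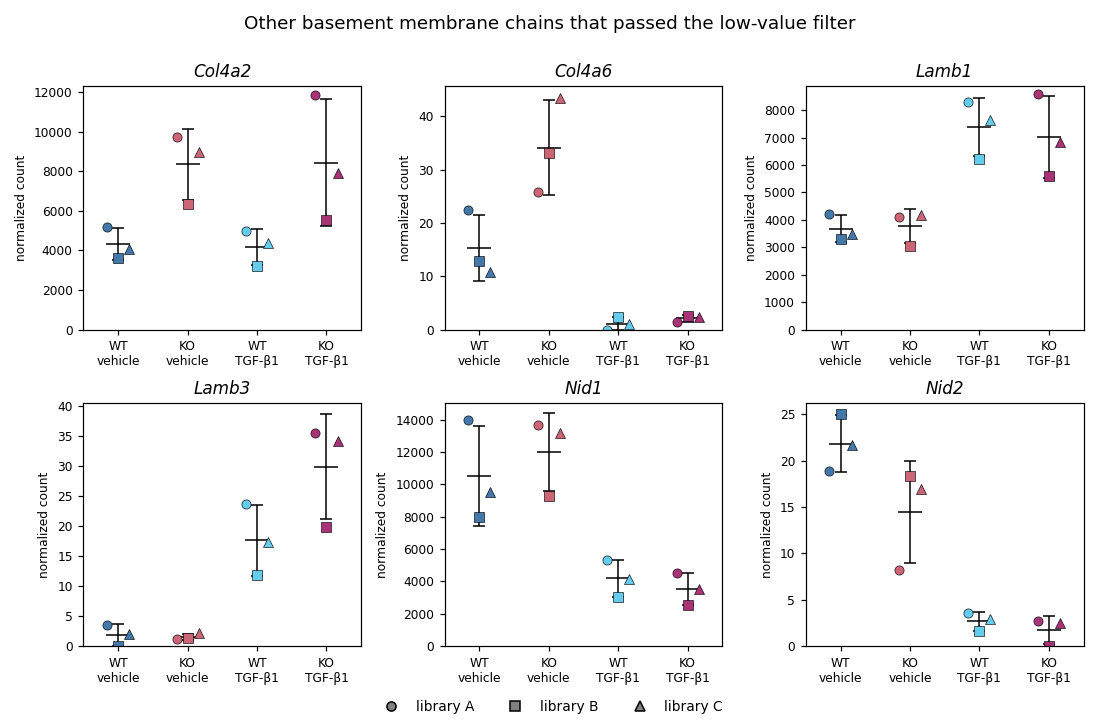
Normalized count (y axis, from 0) of the 6 other basement membrane chain genes that passed the filter, in the 12 libraries by group (x axis). Circles, squares and triangles are libraries A, B and C, and bars are the mean ± SD (n = 3). Lamb1 and Lamb3 were higher and Col4a6, Nid1 and Nid2 lower in the TGF-β1 libraries, and Col4a2 was higher in PKN2 KO libraries.

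Receptors for these proteins were also on the panel, and all 7 listed were tested. Itga7, the α7 integrin subunit of a laminin receptor, was higher in PKN2 KO PSCs in vehicle (177 ± 41.1 against 56.9 ± 7.27, log2 fold change 1.60 ± 0.25, limma adjusted p = 0.00111). It was 1 of 7, beside 13.9% of all genes called. No receptor was called between genotypes after TGF-β1 (limma, with 2 of 7 at an unadjusted p under 0.05), beside 15.1% of all genes. With TGF-β1, 6 of 7 were called in each genotype, beside 50.8% of all genes in WT and 48.7% in PKN2 KO PSCs. Among these, Itga2 passed the filter only through TGF-β1 libraries and Bcam only through vehicle libraries. Itga7, Itga2 and Itgb1 were higher and Itga3, Itga6 and Bcam, a receptor for the laminin α5 chain, were lower. Itga3, whose integrin binds laminins with the α5 chain, fell by 1.75 in WT (SE 0.17, adjusted p = 6.93e-07) and by 2.12 in PKN2 KO PSCs (SE 0.17, adjusted p = 1.44e-07). Bcam fell from between 9 and 24 reads to between 0 and 2 (adjusted p = 0.000177 and 0.00172).

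Of 10 enzymes that fold or crosslink collagen, 9 were tested. None was called between genotypes in vehicle (limma, with 0 at an unadjusted p under 0.05), beside 13.9% of all genes. Loxl2, a lysyl oxidase, was lower in PKN2 KO PSCs after TGF-β1 (327 ± 114 against 842 ± 366, log2 fold change -1.34 ± 0.35, limma adjusted p = 0.0179), 1 of 9 beside 15.1% of all genes. With TGF-β1, 4 of 9 rose in WT (23.9% of all genes rose and 26.9% fell), and 2 rose and 1 fell in PKN2 KO PSCs (19.7% rose and 29% fell). Pxdn, the peroxidase that forms sulfilimine crosslinks in collagen IV, rose 2.96-fold in WT (limma adjusted p = 5.42e-06) and 3.52-fold in PKN2 KO PSCs (adjusted p = 1.32e-06), and Plod2, a lysyl hydroxylase, rose 3.22-fold and 3.58-fold (adjusted p = 1.11e-05 and 5.42e-06). Of 10 proteases and inhibitors, 8 were tested. Between genotypes 0 of 8 were called in vehicle (limma, with 0 at an unadjusted p under 0.05) and 1 of 8 after TGF-β1, beside 13.9% and 15.1% of all genes. The 1 called was the collagen IV-degrading gelatinase Mmp9, which was lower in PKN2 KO PSCs (31.8 ± 12.0 against 216 ± 67.9, limma adjusted p = 0.00153). With TGF-β1, 2 of 8 rose and 2 fell in WT, and 2 rose and 4 fell in PKN2 KO PSCs, against the same shares of all genes. Mmp9, which rose, passed the filter only through TGF-β1 libraries. Mmp15, which fell in PKN2 KO PSCs, passed it only through vehicle libraries.

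As a description over the same 12 libraries, the panel genes closest in pattern to each member were ranked by Pearson r of log2 values, and the libraries share the 4 groups. For Col4a5 these were Itgb7 and Lgals9 (both r = 0.98), for Col18a1 Itgb3 (0.98) and Edil3 (0.97), and for Lama5 Mmp28 (0.98) and Serping1 (0.97). For Col15a1 they were Itgbl1 (0.95) and Serpinb8 (0.93), and Serpinb8 (0.86) came after Col4a2 for Col4a1. Hspg2 and Lamc1 shared Itgb5 as their closest gene (both r = 0.96), followed by Col4a2 for Hspg2 (0.90) and Fn1 for Lamc1 (0.90), and the pair correlated with each other at r = 0.97. For Lamb2 they were Itga2b and Adam33 (both r = 0.91). Within the family Col18a1 ran opposite to Lamb2 (r = -0.84) and Col4a5 (r = -0.80).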

How the data were processed

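RNA from mouse PSCs was profiled with the QIAseq targeted panel for mouse extracellular matrix and adhesion genes. The authors counted reads per gene with the supplier's pipeline (STAR, mm10 and DESeq2 1.32 per the submitters' processing notes) and deposited raw counts and normalized counts, a signal made by dividing each library's counts by a factor from reference genes. Whether molecular identifiers were used is not given in the sources used here. Under repeated names in the raw count file, 6 columns were not used, so the 12 libraries were taken from the normalized tables. Vehicle and TGF-β1 libraries were deposited in separate normalized tables. Under the authors' factors, treatment and a difference between these tables therefore cannot be told apart. The all-gene median for TGF-β1 in WT was 0.00 with the authors' factors and -0.25 with total count scaling. Normalized values were whole multiples of 1 step per library (within 0.00016), and the reads obtained were equal to the raw counts of the other 6 columns for all 420 genes.

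limma 3.58.1 (R 4.3.3; trend, robust) was fitted to log2(normalized count + 1) for the 238 genes that reached a normalized count of 10 in 3 or more libraries, with 1 mean per group over all 12 libraries and Benjamini-Hochberg adjustment at 0.05. Fold changes on this scale are understated for low genes. Comparisons share groups. Alternatives were other scalings, DESeq2 1.42.0 and edgeR 4.0.16 on the reads, filters, pseudocounts of 0.5 and 5, no variance trend, fits of a comparison's libraries alone, each library left out, and the replicate letter as a block. Scripts were tested on simulated data.

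The members and gene lists were chosen with earlier results of these data known. Named were all 8 members, up to 6 called genes of each list by adjusted p, and the 2 genes most like each member. The 420 identifiers matched symbols in GENCODE M21 (GRCm38).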

Additional observations from a re-analysis of the deposited data

Results flagged for a closer look

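The response of Mmp9 to TGF-β1 differed between genotypes by a test of the difference itself (interaction of -3.41 ± 0.72 on the log2 scale, limma adjusted p = 0.0257). Mmp9 had 0 to 2 reads per library with vehicle in either genotype, 188 to 241 reads in WT and 16 to 37 reads in PKN2 KO libraries with TGF-β1, so the size of the interaction depends on the pseudocount. The call was lost without PKN2 KO vehicle library B and without WT TGF-β1 library C, where 0 of 237 genes had a called interaction.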

How the results depend on the processing

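Lama5 and Col4a1 were called higher in PKN2 KO PSCs in both treatments, and Col4a5 and Lama5 lower and Col18a1 higher with TGF-β1 in both genotypes, in every alternative run. Counts of called members moved by over 1.5 times as follows. In vehicle, 3 members higher in PKN2 KO became 5 with total count scaling (adding Col18a1 and Hspg2, while calls over all genes went from 33 to 44 of 238) and 5 without the A libraries. For TGF-β1 in WT, 5 became 3 with that comparison's libraries alone (Lamb2 lost, Col15a1 not tested, 110 of 221 genes called), and the count ran from 3 to 5 without 1 library. Leaving out WT vehicle library B or C gave 3 each, with Col15a1 and Lamb2 lost (113 of 235 and 116 of 237 genes called). Without 1 library the vehicle count ran from 2 to 4 (7.17% to 16% of all genes called) and the count after TGF-β1 from 3 to 4 (11% to 20.3%).

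The labels do not say what same-lettered libraries share. Deviations from group means correlated at 0.39 on average over 18 same-lettered pairs (-0.23 to 0.70), C pairs in the groups compared ran from -0.03 to 0.08, and in 26 of 36 cases a library correlated best with its own letter. For every member except Lamb2, the uncalled Col4a5 included, the PKN2 KO value was above the WT value of the same letter throughout both treatments. The share of all genes with this pattern was not counted, and the all-gene medians between genotypes were themselves above 0 under the authors' factors (0.21 and 0.13). With the letter as a block, 7 members were higher in PKN2 KO in vehicle and 7 after TGF-β1 (limma and edgeR alike), while limma's calls over all genes went from 33 to 87 and from 36 to 101 of 238. The members were 6 and 5 with no trend (71 and 90 of 238 genes called), 6 and 7 with total count scaling (84 and 102 genes), and 6 and 6 with TMM (87 and 98 genes). For TGF-β1 in WT the block with total count scaling called 8, beside 173 of 238 genes (72.7%). With the block, 1 interaction was called in limma, edgeR and TMM scaling (Col18a1, -0.63 in limma, where calls over all genes went from 8 to 42). With the block limma gave infinite prior degrees of freedom for 197 of 238 genes, so those p-values treat the spread as known.

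Signs flipped only for uncalled values near 0, on the log2 scale. Col4a1 with TGF-β1 in WT gave 0.02 without the A libraries and -0.14 to 0.08 without 1 library. Col4a1 in PKN2 KO gave -0.19 with total count scaling, with or without the block, -0.00 in edgeR, -0.01 without the A libraries and -0.13 to 0.10 without 1 library. Its interaction gave -0.03 without the A libraries and -0.08 to 0.15 without 1 library. Col4a5 between genotypes in vehicle gave -0.07 with TMM, with or without the block, -0.12 with median-of-ratios factors and -0.01 to 0.22 without 1 library. Hspg2 with TGF-β1 in WT gave 0.07 without the A libraries and -0.18 to 0.21 without 1 library. The Lama5 interaction gave 0.07 with TMM, with or without the block, 0.10 with median-of-ratios factors, 0.04 with total count scaling, with or without the block, 0.12 in DESeq2, 0.11 in edgeR, 0.05 in edgeR with the block, 0.02 with a pseudocount of 0.5 and -0.35 to 0.20 without 1 library. Lamb2 between genotypes after TGF-β1 gave -0.27 to 0.02 and Lamc1 with TGF-β1 in WT -0.31 to 0.24 without 1 library. The causes were not tested. With a filter of 10 in every library Col15a1 was not tested, and its 3 or 4 reads in WT with TGF-β1 limit its precision.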
